A study of Drosophila melanogaster with 12 samples.

Results

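The Toll pathway sets the dorsoventral axis of the Drosophila embryo, and 10 of its maternally acting genes are described here across all samples of the series: ndl, gd, snk, ea, spz, Tl, tub, pll, cact and dl. Each probe whose annotation named one of these genes was taken, which gave 12 probes for the 10 genes (dl and cact with 2 probes each) among the 14485 probes of the array, of which 12574 carry a single gene symbol, for 11980 named genes. Whole embryos aged 3.5 to 4.5 h (stage 8 to 9, at 25 °C) gave the RNA, and came from simGal4 mothers crossed to males with a UAS construct. The tested constructs were EnRep, HMG- and Dichaete WT, named as in the labels, and every one of them was set against embryos in which the same driver expressed UAS GFP, so all samples and all controls carry simGal4, a driver active in the midline cells of the nervous system. Each construct has 4 two-colour arrays, 1 per biological replicate. The construct was in Cy3 on replicates 1 and 2 and in Cy5 on replicates 3 and 4. The design text speaks of a dominant negative construct without saying which of them it means, and the labels do not say whether GFP RNA was shared between constructs.

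In the egg, a series of proteases in the fluid around the embryo acts on the ventral side and ends in the cleavage of Spätzle, which binds the receptor Toll. The receptor recruits adaptors and the kinase Pelle, the inhibitor Cactus is degraded, and the transcription factor Dorsal enters ventral nuclei, where it turns mesoderm and neuroectoderm genes on and dorsal genes off. The same receptor and its cytoplasmic partners serve later in the immune response and in other tissues, whereas most of the RNA for the patterning step is loaded into the egg by the mother. Because whole embryos were measured, fewer cells of a type and less RNA per cell cannot be told apart.

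Values are log2 ratios of construct over GFP after normalisation, with 0 meaning the ratio typical of spots of like intensity on that array. They are background-corrected and loess-normalised intensities, tested with 1 linear model in limma over all 12 arrays and adjusted over all 14485 probes. The median spot of an array read 216 to 373 units in the Cy3 channel, and 244 to 365 in the Cy5 channel. The number of arrays limits the precision. Of the 13 probes for markers of gastrulating and segmenting embryos, the spot finder accepted 61.5% to 100% in the construct channel of each array, beside 71.8% to 98.3% of all probes. A list of later muscle and cuticle genes (15 probes) had medians of -0.55 to 1.16 on EnRep arrays, -0.55 to -0.15 on HMG- arrays and -0.34 to 0.62 on Dichaete WT arrays, with values above 0 on EnRep replicate 4 (1.16) and Dichaete WT replicates 1 (0.62) and 2 (0.60). Within it the smallest p-values were those of Osi6 and Osi7, of a cuticle-related family, at -1.59 and -0.51 in HMG- embryos. The Osi7 spot was accepted in neither channel on EnRep replicate 4, HMG- replicate 1 and Dichaete WT replicates 2 and 3. In any construct 0 of the 15 probes were called by limma. At an unadjusted p below 0.05 there were 2, 4 and 1 in EnRep, HMG- and Dichaete WT embryos. Of all probes 14.1%, 13% and 15.6% were below it in that order. A list of maternal RNAs that embryos clear early or keep in the germ line (13 probes) had medians of -0.11 to 0.039 on EnRep arrays, 0.19 to 0.51 on HMG- arrays and -0.19 to 0.12 on Dichaete WT arrays, and all 13 of its estimates were above 0 in HMG- embryos. Both probes of osk, which organises the germ plasm, were called there, at 0.72 (SE 0.13, limma adjusted p = 0.0236) and 0.72 (SE 0.14, limma adjusted p = 0.0386). In the mean of the 3 constructs the osk probes were higher at 0.28 (SE 0.075, limma adjusted p = 0.0332) and 0.32 (SE 0.083, limma adjusted p = 0.0306), calls lost without any 1 of 7 arrays and any 1 of 6 (limma adjusted p up to 0.0888 and 0.0808). In that mean exu, needed to localise maternal RNA, was lower at -0.17 (SE 0.048, limma adjusted p = 0.0463) and the pair-rule gene eve was higher at 0.16 (SE 0.046, limma adjusted p = 0.0436). The osk calls in HMG- embryos were lost without HMG- replicate 2, 3 or 4, and that of the second probe also without EnRep replicate 1, 2 or 3 or Dichaete WT replicate 4 (limma adjusted p up to 0.274). The exu call was lost without any 1 array but HMG- replicate 1 (limma adjusted p up to 0.111), and its value was -0.051 with print-tip loess. The eve call was lost without any 1 array but HMG- replicate 1 or Dichaete WT replicate 3 (limma adjusted p up to 0.103). Its value was 0.091 with an offset of 200 or 0.10 with no background correction. In the GFP channel the eve spot was not accepted on EnRep replicate 1 and HMG- replicates 1 and 2. In the construct channel it was not accepted on Dichaete WT replicate 3. The part of embryo age or RNA content in the results below was not tested.

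**Figure D1:**
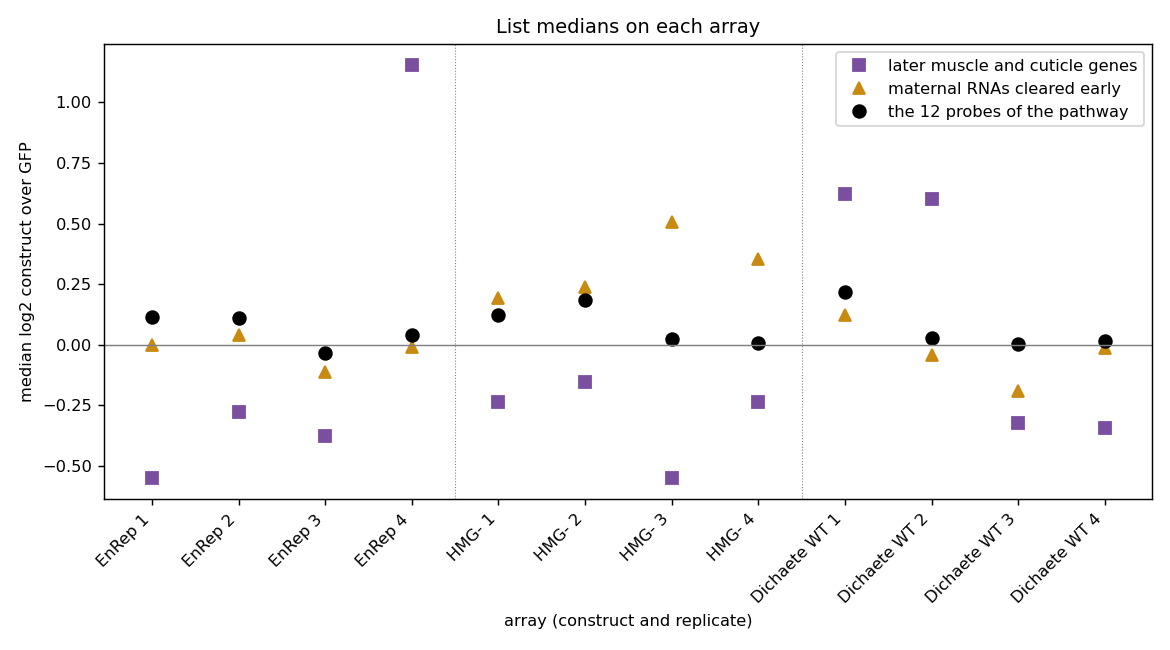
The vertical axis is the median log2 construct over GFP of a gene list on each of the 12 arrays, which run along the horizontal axis by construct and replicate. Later muscle and cuticle genes stand above 0 on EnRep replicate 4 (1.16) and Dichaete WT replicates 1 and 2, maternal RNAs stand above 0 on all 4 HMG- arrays, and the median of the 12 pathway probes stays between -0.036 and 0.22.

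Of the 10 genes, Tl alone passed the test, higher with a construct, in the mean of the 3 constructs. None of the 12 probes was called at an adjusted p below 0.05 in EnRep, HMG- or Dichaete WT embryos by limma, where 0.753%, 0.856% and 0.863% of all probes were called in that order. At an unadjusted p below 0.05 there were 1, 2 and 3 of the 12 probes in EnRep, HMG- and Dichaete WT embryos, against 14.1%, 13% and 15.6% of all probes. The 36 estimates ran between -0.17 and 0.33, and their 95% intervals between -0.41 and 0.65. Of these intervals, 33 lay within a 1.5-fold change in either direction, the other 3 being those of Tl. The smallest adjusted p among the 36 was 0.312 in limma. In the mean of the 3 constructs over GFP, 1 of the 12 probes was called, Tl, higher with a construct, where 10% of all probes were called and 5.13% were called higher. The median over the 12 probes was 0.046 in EnRep, 0.052 in HMG- and -0.064 in Dichaete WT embryos, beside 0.010, -0.0022 and 0.0068 over all probes.

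**Figure D2:**
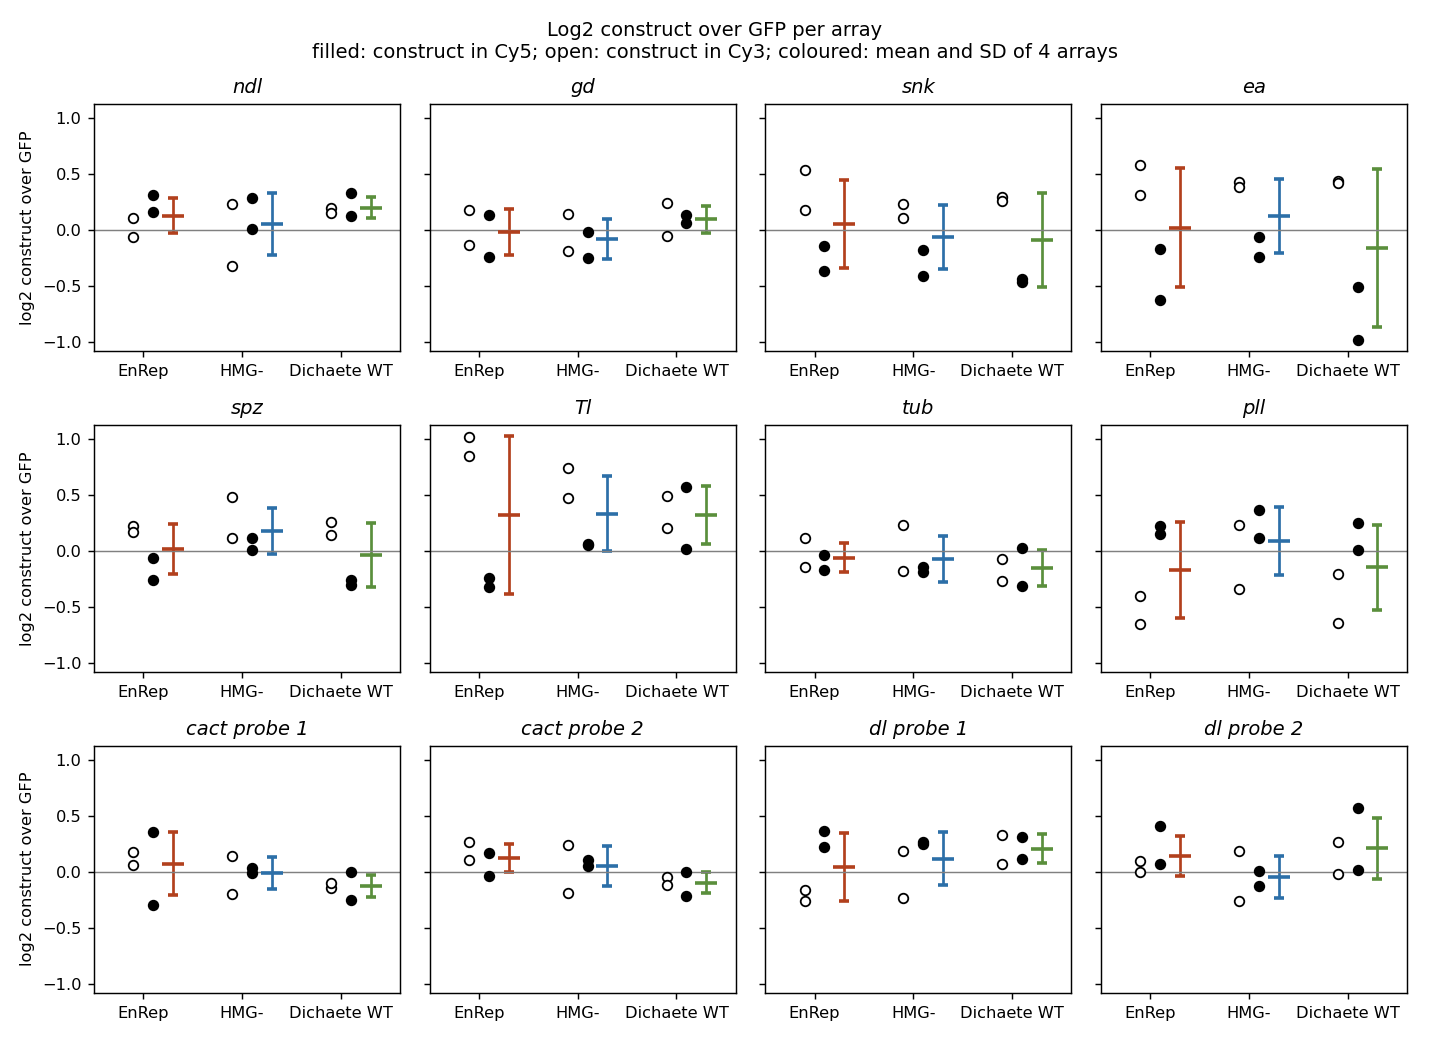
Each panel is a probe and each point the log2 construct over GFP on 1 array, filled with the construct in Cy5 and open with it in Cy3; the coloured mark and bar are the mean and SD of 4 arrays. The dye orientations do not overlap for ea, snk and spz, and overlap for Tl and pll, whose dye term was also called. Tl on EnRep arrays spans -0.32 to 1.01.

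The protease cascade comes first in the pathway. ndl encodes Nudel, the large modular protease that starts it in the perivitelline space. Its log2 ratios were 0.11, -0.063, 0.16 and 0.31 on EnRep replicates 1 to 4, -0.32, 0.23, 0.013 and 0.29 on HMG- replicates 1 to 4 and 0.20, 0.15, 0.33 and 0.12 on Dichaete WT replicates 1 to 4. All 4 Dichaete WT arrays were above 0, while 1 EnRep and 1 HMG- array lay below it, and the groups overlapped. The estimates were 0.13, 0.051 and 0.20 in EnRep, HMG- and Dichaete WT embryos (SE 0.092 each), and that in Dichaete WT did not pass (limma adjusted p = 0.318). gd encodes Gastrulation defective, the protease that activates Snake. It was the dimmest of the 12 probes, brighter than 4.13% of all probes, and its spot was accepted on 9 of 12 arrays in the construct channel and on 6 of 12 in the GFP channel. Its ratios stayed between -0.25 and 0.24 on all 12 arrays, 6 of which were above 0, and the estimates in EnRep, HMG- and Dichaete WT embryos were -0.017, -0.080 and 0.094. None was called (smallest limma adjusted p = 0.663), and the 95% intervals ran between -0.28 and 0.29, on a spot that was often not accepted.

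snk encodes Snake, the protease that cleaves Easter. It measured -0.37 and -0.15 with the construct in Cy5 and 0.54 and 0.18 with it in Cy3 in EnRep embryos, -0.41 and -0.18 with the construct in Cy5 and 0.10 and 0.23 with it in Cy3 in HMG- embryos and -0.44 and -0.46 with the construct in Cy5 and 0.29 and 0.26 with it in Cy3 in Dichaete WT embryos. Every array with the construct in Cy5 was below 0 and every array with it in Cy3 above 0. The snk spot was accepted on 9 of 12 arrays in the construct channel and on 10 of 12 in the GFP channel. It was not accepted in the construct channel on replicate 3 of any construct, each with the construct in Cy5. The 3 construct estimates for snk, with dye accounted for, lay between -0.087 and 0.051 (smallest limma adjusted p = 0.646). ea encodes Easter, the protease that cuts Spätzle into its active form, and split the same way. In EnRep embryos it measured -0.63 and -0.17 with the construct in Cy5 and 0.58 and 0.31 with it in Cy3, in HMG- embryos -0.067 and -0.24 with the construct in Cy5 and 0.42 and 0.39 with it in Cy3, and in Dichaete WT embryos -0.98 and -0.51 with the construct in Cy5 and 0.44 and 0.42 with it in Cy3. The 6 arrays of each orientation did not overlap for ea or for snk, nor for spz. The share of all probes that split this way was not counted. The dye term was called for 33.1% of all probes. The construct estimates for ea were 0.022 (SE 0.11, limma adjusted p = 0.957) in EnRep, 0.13 (SE 0.11, limma adjusted p = 0.707) in HMG- and -0.16 (SE 0.11, limma adjusted p = 0.524) in Dichaete WT embryos.

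spz, the gene of the ligand Spätzle, had ratios of 0.23, 0.16, -0.26 and -0.067 on EnRep, 0.48, 0.12, 0.11 and 0.012 on HMG- and 0.14, 0.26, -0.26 and -0.30 on Dichaete WT replicates 1 to 4. It was above 0 on all 4 HMG- arrays and on 2 of 4 in each other group. Its estimate in HMG- embryos was 0.18 with a 95% interval of 0.014 to 0.35, a 1.13-fold level that did not pass (limma adjusted p = 0.342). In EnRep and Dichaete WT embryos spz was at 0.017 and -0.040. Counting ratios of the same sign on all 4 arrays, 2 of the 12 probes were so in HMG- embryos (Tl and spz, both above 0, where 16.1% of all probes had 1 sign). In Dichaete WT embryos 4 of the 12 were (Tl, ndl and dl probe 1 above 0 and cact probe 1 below it, against 14.3% of all probes), and in EnRep embryos 0 of the 12 (against 16.5%).

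Tl encodes the receptor Toll and was the member with the largest estimates. In EnRep embryos its log2 ratio was -0.32 and -0.24 with the construct in Cy5 and 0.84 and 1.01 with it in Cy3. In HMG- embryos it was 0.055 and 0.057 with the construct in Cy5 and 0.48 and 0.74 with it in Cy3, and in Dichaete WT embryos 0.57 and 0.014 with the construct in Cy5 and 0.49 and 0.21 with it in Cy3. Of the 12 arrays, 10 were above 0, the exceptions being both EnRep arrays with the construct in Cy5. The mean was 0.32 ± 0.70 in EnRep, 0.33 ± 0.34 in HMG- and 0.32 ± 0.26 in Dichaete WT embryos (SD, n = 4 each), so the groups overlapped. No single construct passed, with limma adjusted p-values of 0.346 in EnRep, 0.357 in HMG- and 0.317 in Dichaete WT embryos (SE 0.15 each). Over the 3 constructs together Tl was 0.32 above GFP (SE 0.085, 95% interval 0.14 to 0.51), a 1.25-fold level, and passed (limma adjusted p = 0.0312). If the arrays of different constructs shared GFP RNA, which the labels do not say, the standard errors and adjusted p-values of Tl and of every other call in the mean of the 3 constructs would be too small.

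That call was close to the threshold. It was lost with median centring at 0.21 (adjusted p = 0.217), with the deposited ratios at 0.26 (adjusted p = 0.0773), with no dye term (adjusted p = 0.170) and without EnRep replicate 1 or 2, Dichaete WT replicate 4, or HMG- replicate 2, 3 or 4, where limma adjusted p-values were 0.0516 to 0.0801. Within an orientation, the mean over 6 arrays was 0.021 ± 0.31 with the construct in Cy5 and 0.63 ± 0.29 with it in Cy3 (SD). Tl was among the brighter probes, above 89.8% of all probes in intensity, and its residual spread was larger than that of 91.0% of them. Without the 3 arrays whose later muscle and cuticle genes were above 0, the mean for Tl was 0.47 (adjusted p = 0.00184) in limma. That fit kept only the Dichaete WT arrays with the construct in Cy5, where Tl was 0.57 and 0.014. The shared dye term put the Dichaete WT estimate at 0.71, above both arrays, so the higher mean leans on that term.

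**Figure D3:**
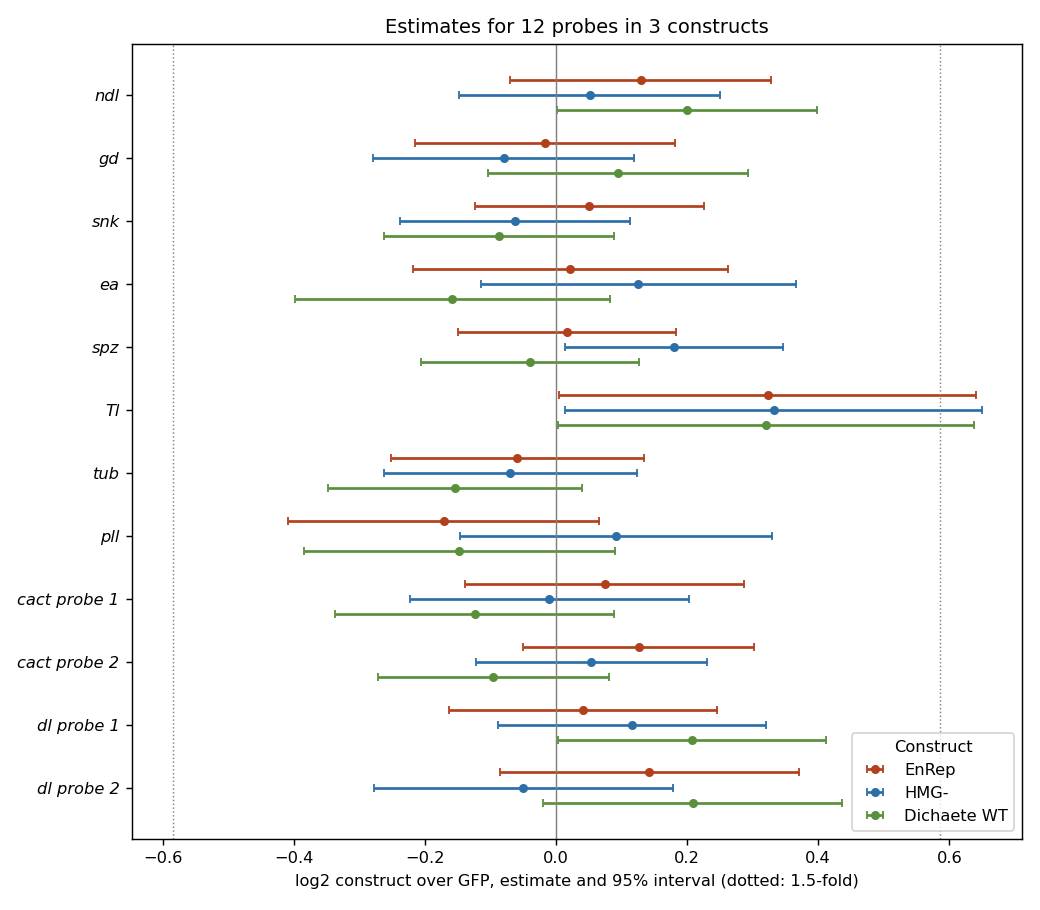
The horizontal axis is the fitted log2 construct over GFP with its 95% interval from limma, and each row of 3 points is a probe in EnRep, HMG- and Dichaete WT embryos. Only the 3 Tl intervals reach past 1.5-fold (dotted lines), and the 3 Tl estimates lie at 0.32 to 0.33.

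The 3 single-gene probes with the ratios most like those of Tl over the 12 arrays, once the dye term was removed, were Best1 (Pearson r = 0.98), boil (r = 0.94) and CtsF (r = 0.94). Best1 encodes a bestrophin chloride channel and CtsF a cathepsin protease. The Best1 ratio was 0.49 on EnRep replicate 2, its highest, and -0.44 on EnRep replicate 3, its lowest. These points share arrays, and possibly GFP RNA, so the coefficients are descriptions of 12 arrays picked as the highest over all single-gene probes.

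Downstream of the receptor, tub encodes Tube, the adaptor that joins the receptor complex to Pelle. Its ratios were 0.12, -0.15, -0.033 and -0.17 on EnRep, 0.23, -0.18, -0.14 and -0.19 on HMG- and -0.27, -0.068, -0.31 and 0.027 on Dichaete WT replicates 1 to 4. Of the 12 arrays, 9 were below 0, the higher ones including HMG- replicate 1. The estimates were -0.059 in EnRep, -0.070 in HMG- and -0.15 in Dichaete WT embryos, none called, with a lowest interval bound of -0.35. pll encodes Pelle, the kinase that Tube recruits. It measured 0.22 and 0.15 with the construct in Cy5 and -0.41 and -0.65 with it in Cy3 in EnRep embryos, 0.11 and 0.36 with the construct in Cy5 and 0.23 and -0.34 with it in Cy3 in HMG- embryos and 0.0060 and 0.25 with the construct in Cy5 and -0.64 and -0.20 with it in Cy3 in Dichaete WT embryos. All 6 arrays with the construct in Cy5 were above 0 and 5 of 6 with it in Cy3 below 0, the reverse of ea and snk. Its estimates were -0.17 (SE 0.11, limma adjusted p = 0.511) in EnRep, 0.092 (SE 0.11, limma adjusted p = 0.800) in HMG- and -0.15 (SE 0.11, limma adjusted p = 0.551) in Dichaete WT embryos.

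cact encodes Cactus, the inhibitor that holds Dorsal in the cytoplasm, and was measured by 2 bright probes, above 96.1% and 96.4% of all probes in intensity. Probe 1 had ratios of 0.18, 0.057, -0.30 and 0.36 on EnRep, -0.20, 0.14, 0.033 and -0.013 on HMG- and -0.14, -0.10, -0.0058 and -0.25 on Dichaete WT replicates 1 to 4. Probe 2 had 0.11, 0.26, -0.038 and 0.17 on EnRep, -0.19, 0.24, 0.11 and 0.052 on HMG- and -0.050, -0.12, 0.00061 and -0.21 on Dichaete WT replicates 1 to 4. Both probes averaged above 0 in EnRep embryos (0.074 and 0.13) and below 0 in Dichaete WT embryos (-0.12 and -0.096), with overlapping arrays and limma adjusted p-values of 0.518 or more. With median centring both EnRep values turned below 0, at -0.18 and -0.12. The difference EnRep minus Dichaete WT was 0.20 (SE 0.14, limma adjusted p = 0.997) for probe 1 and 0.22 (SE 0.12, limma adjusted p = 0.997) for probe 2. Over the 12 arrays, dye removed, the 2 cact probes had r = 0.79, the highest of the 66 pairs of pathway probes, whose median was -0.011.

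dl encodes Dorsal, the Rel-family transcription factor at the end of the pathway. Probe 1 had ratios of -0.17, -0.26, 0.22 and 0.37 on EnRep, -0.23, 0.18, 0.27 and 0.24 on HMG- and 0.33, 0.074, 0.31 and 0.12 on Dichaete WT replicates 1 to 4. For probe 2 they were 0.10, -0.0061, 0.069 and 0.41 on EnRep, -0.26, 0.18, -0.13 and 0.0050 on HMG- and 0.27, -0.021, 0.57 and 0.018 on Dichaete WT replicates 1 to 4. In Dichaete WT embryos both probes gave an estimate of 0.21, a 1.15-fold level, and neither passed (limma adjusted p = 0.312 for probe 1 and 0.364 for probe 2). In HMG- embryos the probes differed in sign, at 0.12 and -0.050. Their ratios had r = 0.56 over the 12 arrays with dye removed, lower than that of ndl with probe 1 (0.71) or with probe 2 (0.77).

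Between constructs, none of the 12 probes was called in limma in EnRep minus HMG-, EnRep minus Dichaete WT or HMG- minus Dichaete WT, where 0.0276%, 0.0207% and 0% of all probes were called, and none had an unadjusted p below 0.05, where 6.85%, 4.46% and 5.27% of all probes did. These differences ran between -0.26 and 0.28, with 95% intervals between -0.60 and 0.62, so a difference of up to 1.54-fold between constructs lay inside the intervals. The extremes were pll in EnRep minus HMG- (-0.26) and ea in HMG- minus Dichaete WT (0.28). For Tl the differences between constructs lay between -0.0093 and 0.012, each with an interval about as wide as -0.45 to 0.45.

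Several members followed the dye of the construct, which was common on this array. The dye term was called for 5 of the 12 probes in limma, beside 33.1% of all probes, so it was not particular to these genes. Tl, spz, snk and ea averaged lower ratios with the construct in Cy5, and pll averaged higher ones. The gap between orientations (construct in Cy5 minus construct in Cy3) was -0.86 for ea, -0.61 for Tl, -0.60 for snk, -0.36 for spz and 0.52 for pll. With the construct in Cy5 and Cy3, Tl averaged -0.28 and 0.93 in EnRep, 0.056 and 0.61 in HMG- and 0.29 and 0.35 in Dichaete WT embryos. The dye term is shared by the constructs, and a dye effect that differs between them was not tested. Over 6 arrays each, ea averaged -0.43 ± 0.34 with the construct in Cy5 and 0.43 ± 0.087 with it in Cy3. Each construct has 2 arrays of either orientation, so the dye term and the construct estimates are separable, but dye orientation and replicate number cannot be told apart.

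**Figure D4:**
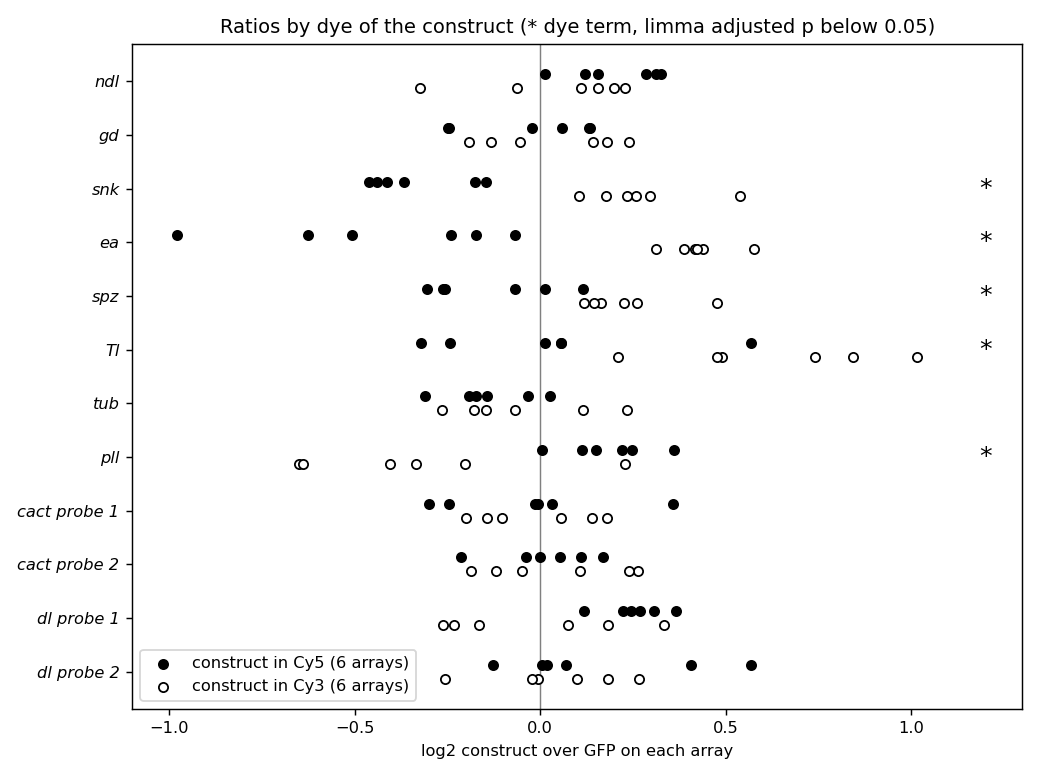
The horizontal axis is the log2 construct over GFP on each array for the 12 probes, with 6 arrays in each dye orientation. For ea, snk and spz the orientations do not overlap, and stars mark the 5 probes whose dye term passed in limma, as it did for 33.1% of all probes.

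Other genes of the pathway, targets of Dorsal and dorsal patterning genes were taken from 7 lists with 77 genes. Of these, 58 had a named probe (69 probes). Among them 0 of the 69 probes were called by limma in EnRep embryos. In HMG- embryos 2 were lower, and in Dichaete WT embryos 1 was higher. Over all probes 0.753%, 0.856% and 0.863% were called in EnRep, HMG- and Dichaete WT embryos. At an unadjusted p below 0.05 there were 8, 11 and 9 of the 69 in that order. Of all probes 14.1%, 13% and 15.6% were below it. In the mean of the 3 constructs 2 were higher and 5 lower, beside 10.0% of all probes called in either direction and 5.13% called higher. The median of the 69 was 0.0051 in EnRep, -0.045 in HMG- and -0.0029 in Dichaete WT embryos, beside the medians over all probes given above. Of the egg-chamber and perivitelline genes beside the proteases (6 of 6 genes, 15 probes), the called ones were all probes of pip, and the list's medians were 0.038, -0.11 and 0.014 in EnRep, HMG- and Dichaete WT embryos. pip encodes the sulfotransferase of the ventral follicle cells, is also known from the embryonic salivary gland, and makes many isoforms by alternative splicing.

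pip had 10 probes. Its probe 1000034205 measured -0.30, 0.13, -0.32 and -0.13 on EnRep, -0.44, -0.34, -0.45 and -0.56 on HMG- and 0.046, -0.053, -0.047 and -0.29 on Dichaete WT replicates 1 to 4. For probe 1000045297 the values were -0.052, -0.27, -0.17 and -0.18 on EnRep, -0.46, -0.23, -0.65 and -0.57 on HMG- and -0.21, -0.31, -0.34 and -0.087 on Dichaete WT replicates 1 to 4. On HMG- replicate 3 the spot of probe 1000034205 was accepted in neither channel. The 4 HMG- arrays were all below 0 on both probes. Their HMG- estimates were -0.45 (SE 0.080, limma adjusted p = 0.0236) and -0.48 (SE 0.079, limma adjusted p = 0.0169), and both calls were lost without HMG- replicate 1, 3 or 4, the first also without HMG- replicate 2, with adjusted p-values up to 0.167. Both were also lost with a trended and robust variance (limma adjusted p = 0.0610 for each) and with no dye term (0.0907 and 0.0588), and the first with median centring (0.0588) and with the replicate block in place of the dye term (0.0532). In the mean of the 3 constructs those probes were -0.23 (SE 0.046, limma adjusted p = 0.00973) and -0.29 (SE 0.045, limma adjusted p = 0.00245), probe 1000043127 was -0.33 (SE 0.047, limma adjusted p = 0.00161) and probe 1000034207 was -0.29 (SE 0.067, limma adjusted p = 0.0171). The last of these was lost without HMG- replicate 4 (limma adjusted p = 0.0514) without the 3 arrays with later genes above 0 (-0.24, limma adjusted p = 0.0582), with no dye term (limma adjusted p = 0.0848) and with spots accepted in both channels (limma adjusted p = 0.0511). Of the 10 probes, 6 were below 0 in EnRep, 8 in HMG- and 5 in Dichaete WT embryos, so the signs were mixed among probes of this gene. HMG- minus Dichaete WT was -0.36 (SE 0.11, limma adjusted p = 0.742) for probe 1000034205 and was not called. Maternal RNAs stood higher on the same HMG- arrays, and their part in these values was not tested.

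**Figure D5:**
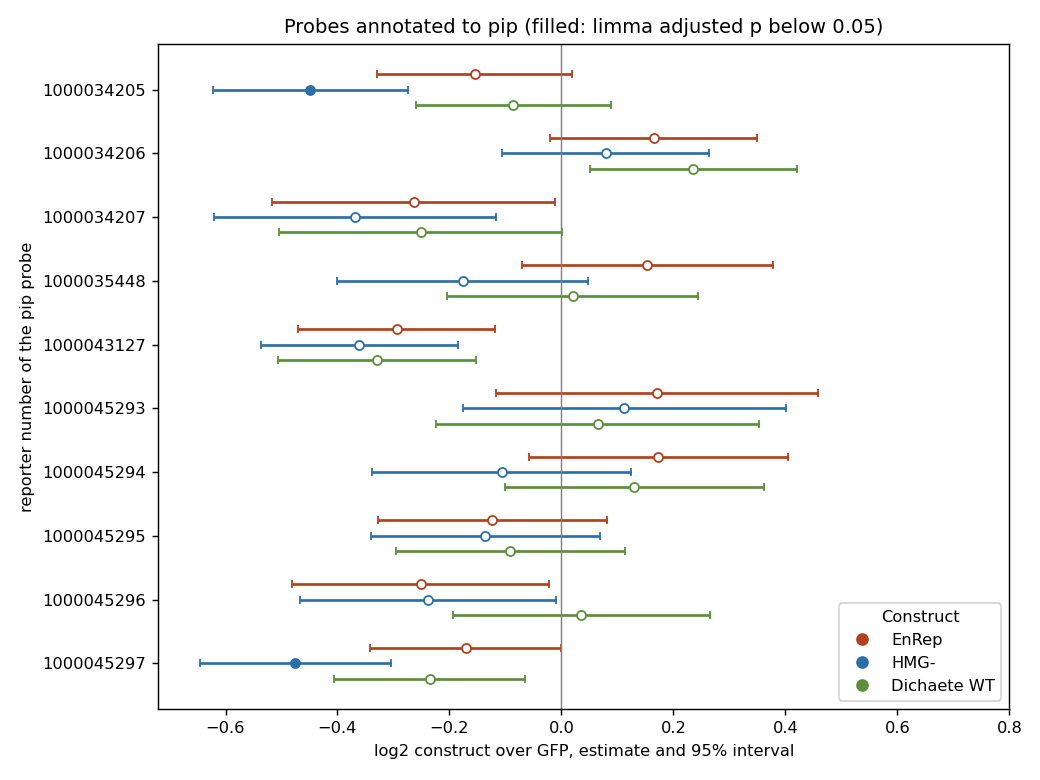
The horizontal axis is the fitted log2 construct over GFP with its 95% interval for each of the 10 pip probes, in EnRep, HMG- and Dichaete WT embryos; filled points passed in limma. Both filled points are HMG- estimates (-0.45 and -0.48), and the probes lie on both sides of 0.

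The remaining lists held few calls. Among immune-branch genes (10 of 15 genes) 0 of 10 probes were called by limma in any construct, none had an unadjusted p below 0.05, and the medians were 0.091, -0.057 and 0.061 in EnRep, HMG- and Dichaete WT embryos. The smallest p-values there were those of SPE, the protease that cleaves Spätzle in immunity, at 0.12, -0.11 and 0.14 in EnRep, HMG- and Dichaete WT embryos, and of Dif, a Rel protein of the immune response, at 0.19, -0.064 and 0.11. Among adaptors and regulators below the receptor (11 of 12 genes, 12 probes) none was called by limma either. The list's medians were -0.019, 0.10 and 0.028 in EnRep, HMG- and Dichaete WT embryos. At an unadjusted p below 0.05 there were 0, 3 and 0 probes in that order. Of all probes 14.1%, 13% and 15.6% were below it. There the receptor kinase Gprk2 was 0.14, 0.15 and 0.061 in EnRep, HMG- and Dichaete WT embryos, and the transcription factor Deaf1 0.058, 0.21 and 0.019. Of the other Toll receptors and spz-family ligands (10 of 12 genes, with medians of 0.051, -0.015 and 0.048 in EnRep, HMG- and Dichaete WT embryos), Toll-7 was higher in the mean of the 3 constructs at 0.21 (SE 0.057, limma adjusted p = 0.0382). Its arrays read 0.50 and 0.36 with the construct in Cy5 and -0.019 and 0.030 with it in Cy3 in EnRep, 0.89 and 0.95 with the construct in Cy5 and -0.19 and -0.33 with it in Cy3 in HMG- and 0.44 and 0.53 with the construct in Cy5 and -0.40 and -0.29 with it in Cy3 in Dichaete WT embryos, and the call was lost without any 1 of 9 arrays (EnRep replicates 1 to 3, Dichaete WT replicates 1 to 4, HMG- replicates 3 and 4; limma adjusted p up to 0.100).

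Targets of Dorsal and dorsal patterning genes made up 3 of the 7 lists, so their calls are among those counted above. Of genes that high nuclear Dorsal turns on in the mesoderm (6 of 11 genes, 7 probes) twi, the mesoderm-determining transcription factor, was lower in the mean of the 3 constructs at -0.29 (SE 0.070, limma adjusted p = 0.0217). It measured -0.22, -0.53, -0.025 and -0.29 on EnRep, 0.10, -0.33, -0.20 and -0.12 on HMG- and -0.60, -0.10, -0.89 and -0.32 on Dichaete WT replicates 1 to 4, so 11 of 12 arrays were below 0. The twi call was lost without EnRep replicate 2, Dichaete WT replicate 1, or HMG- replicate 2, 3 or 4 (limma adjusted p = 0.0513 to 0.0604). The list's median was -0.20 in EnRep, -0.11 in HMG- and -0.066 in Dichaete WT embryos. Among genes turned on by lower Dorsal in the neuroectoderm (5 of 11 genes) none was called by limma. Their medians were 0.042, 0.050 and -0.029 in EnRep, HMG- and Dichaete WT embryos. At an unadjusted p below 0.05 there were 0, 1 and 2 in that order. Of all probes 14.1%, 13% and 15.6% were below it. The SoxB gene SoxN was 0.034, -0.12 and -0.30 in EnRep, HMG- and Dichaete WT embryos, and the homeobox gene ind 0.15, 0.050 and 0.30. The ind spot was accepted in neither channel on HMG- replicates 1 and 3 and Dichaete WT replicates 1 and 4. On EnRep replicate 1, where ind was highest at 0.65, it was not accepted in the construct channel.

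Of a list of dorsal patterning genes (10 of 10 genes), not all of them known to be repressed by Dorsal, tld was higher in Dichaete WT embryos. It encodes Tolloid, the dorsal protease that releases Dpp from its inhibitor Sog. tld measured 0.034, 0.26, -0.24 and -0.15 on EnRep, -0.11, 0.17, -0.023 and -0.052 on HMG- and 0.57, 0.54, 0.70 and 0.42 on Dichaete WT replicates 1 to 4. All 4 Dichaete WT arrays lay above every EnRep and HMG- array, but tld was named because it was called. The share of all probes that separate this way was not counted. The estimate was 0.56 (SE 0.083, limma adjusted p = 0.0103) in Dichaete WT embryos, against -0.025 in EnRep and -0.0041 in HMG- embryos. The differences were not called, at -0.58 (SE 0.12, limma adjusted p = 0.301) for EnRep minus Dichaete WT and -0.56 (SE 0.12, limma adjusted p = 0.458) for HMG- minus Dichaete WT. The Dichaete WT call was lost without its replicate 1, 2 or 3 and without the 3 arrays with later genes above 0, at 0.66 (adjusted p = 0.0566). In the mean of the 3 constructs tld was 0.18 (SE 0.048, limma adjusted p = 0.0357), a call lost without any 1 of 8 arrays (EnRep replicates 1 and 2, HMG- replicates 2 to 4, Dichaete WT replicates 1 to 3). Of the 10 probes of this list, 1 was above 0 in EnRep, 1 in HMG- and 2 in Dichaete WT embryos, with medians of -0.076, -0.13 and -0.072.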

How the data were processed

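Two-colour arrays were quantified with Dapple, per the file headers, which give the deposited spot intensity (median pixels, foreground and local background, Cy3 and Cy5), not normalised. The authors' deposited value table holds log2 ratios, construct over GFP in direction when set against the labelled dyes. Its column medians are -0.034 to 0.019, and its background correction and normalisation are not given in the sources used here. The submitters' processing notes name limma.

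In limma 3.58.1 (R 4.3.3), intensities went through normexp (offset 50), global loess (span 0.3), ratios were turned to construct over GFP and spots of a probe were averaged. Of 18240 spots per array, 14569 were used and 3671 not analysed here. Of 14485 probes, 96 carry several symbols and 1815 none. The fit gave each construct a mean, with 1 dye term (+1 or -1), 8 residual and 4.6 prior degrees of freedom. Two-sided p-values had a Benjamini-Hochberg adjustment over every probe (threshold 0.05). Intervals are 95% and unadjusted. The script was tested on simulated data.

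Members and lists were chosen with earlier results of these data known. Named genes were all members, list genes that passed or up to 2 with the smallest p, and the 3 probes most like a member that passed. Alternatives changed background, offset, normalisation, values, dim-probe and spot filters, dye term, arrays, replicate block, array weights and variance prior, and left out each array. Leaving out the 3 arrays with later genes above 0 was added after seeing the data. It left Dichaete WT only arrays with the construct in Cy5, so estimates for that construct lean on the shared dye term.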

Additional observations from a re-analysis of the deposited data

Results flagged for a closer look

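Among 93 groups of 4 arrays (31 probes in 3 constructs), 5 had 1 array farther from the others than Dixon's 95% critical value allows. Chance gives about 1 in 20 for arrays that are alike. Each group mixes both dye orientations and the dye term was not removed, so that rate need not hold here. For dl probe 1, HMG- replicate 1 was -0.23 and the other HMG- arrays 0.18 to 0.27. For tub, HMG- replicate 1 was 0.23 and the others -0.19 to -0.14. For the maternal gene exu, EnRep replicate 2 was -0.42, HMG- replicate 1 was 0.34 and Dichaete WT replicate 1 was -0.43, each apart from the other 3 arrays of its construct. HMG- replicate 1 is the array that stood apart in 3 of these 5 groups.

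SPE was below 0 on all 4 HMG- arrays (-0.11, -0.19, -0.054 and -0.091) and above 0 on all 4 Dichaete WT arrays (0.18, 0.077, 0.25 and 0.073). The difference HMG- minus Dichaete WT was -0.26 and was not called (limma adjusted p = 0.898). SPE was picked for this pattern from 31 probes, and the share of all probes with such opposite signs was not counted. Its spot was accepted on 11 of 12 arrays in the construct channel and on 9 of 12 in the GFP channel.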

How the results depend on the processing

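No member was called in any single construct or difference under any alternative run. In the mean of the 3 constructs the count of 1 became 0 with median centring, the deposited ratios, no dye term, or the replicate block in place of the dye term (Tl 0.32 (adjusted p = 0.0570) in limma), and was 0 to 2 with an array left out, the second being ndl without HMG- replicate 1; adjusted p-values for Tl ran between 0.00184 and 0.217. In the fits that kept both dye orientations, signs turned for estimates between -0.063 and 0.13 as reported, and the cause was not tested. In EnRep embryos they turned with array weights (spz -0.0049, dl probe 1 -0.0081, ea -0.027, gd 0.028), without the 3 arrays with later genes above 0 (spz -0.0088, dl probe 1 -0.011, cact probe 1 -0.044, ea -0.040, gd 0.056), with median centring (cact probes 1 and 2 -0.18 and -0.12), the deposited ratios (-0.087 and -0.029), print-tip loess (ea -0.026) and no background correction (gd 0.011). In HMG- embryos they turned with array weights (cact probe 1 0.034, snk 0.027), print-tip loess (cact probes 1 and 2 0.0018 and -0.0080), median centring (cact probe 2 -0.011) and spots accepted in both channels (ndl -0.054), and in Dichaete WT embryos with the deposited ratios (gd -8.5e-05). In the untested means of 1 orientation, estimates outside that range also changed sign. With the construct in Cy5, Tl was -0.28 and pll 0.19 in EnRep embryos and pll 0.13 in Dichaete WT embryos, and with it in Cy3, tub was 0.028 in HMG- embryos and ea 0.43 and snk 0.28 in Dichaete WT embryos. With an array left out, EnRep values ran -0.019 to 0.052 for spz, -0.032 to 0.10 for dl probe 1, -0.036 to 0.21 for cact probe 1, -0.019 to 0.12 for snk, -0.066 to 0.10 for ea and -0.084 to 0.058 for gd. HMG- values ran -0.16 to 0.0071 for dl probe 2, -0.063 to 0.064 for cact probe 1, -0.010 to 0.15 for cact probe 2, -0.057 to 0.18 for pll and -0.044 to 0.16 for ndl. Over all probes the counts called ran 4 to 353 in EnRep (109 as reported), 9 to 1099 in HMG- (124), 6 to 466 in Dichaete WT (125) and 401 to 2982 in the mean (1454), and 1 to 43, 1 to 5 and 0 to 23 in EnRep minus HMG-, EnRep minus Dichaete WT and HMG- minus Dichaete WT (4, 3 and 0). The replicate block ended the calls of Tl, Toll-7, exu, eve, osk, of tld in the mean and of pip probe 1000034205 in HMG- embryos. Same-numbered arrays of different constructs had correlations between -0.64 and 0.24, and differently numbered ones between -0.51 and 0.67. These ratios cannot show whether same-numbered arrays shared a batch or GFP RNA. The tld call in Dichaete WT embryos was also lost with the arrays of that construct alone (limma adjusted p = 0.0569).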
